A study of Mus musculus with 18 samples.

Results

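The Polycomb subunits described here are 10 mouse genes, taken by symbol from a table of raw read counts that held 24060 distinct symbols. They are Ezh1, Ezh2, Eed, Suz12 and Jarid2 of Polycomb repressive complex 2 (PRC2) and Rnf2, Bmi1, Cbx2, Cbx7 and Cbx8 of Polycomb repressive complex 1 (PRC1). All 10 were found, each on 1 line, and all 10 passed the filter on low counts in every comparison. Poly(A)-selected RNA was sequenced from C57BL/6 mice that carried 1 mutated copy of Chd2, a chromatin remodeller (Chd2+/-, called HET), and from wild-type mice (WT). The 6 groups, of 3 libraries each, were P45 hippocampus HET, P45 hippocampus WT, E13.5 medial ganglionic eminence (MGE) HET, E13.5 MGE WT, E13.5 cortex HET and E13.5 cortex WT. The kind of Chd2 allele is not stated in the labels. The MGE is the part of the embryonic ventral forebrain that gives rise to many interneurons. Stage and region change together between the hippocampus and the embryonic tissues, so age and tissue cannot be told apart there. Sex, read from sex-linked genes as given below, also differs between some of these groups.

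Polycomb proteins keep genes silent by modifying histones. In PRC2, either Ezh1 or Ezh2 is the enzyme that methylates lysine 27 of histone H3, Eed and Suz12 are needed for its activity, and Jarid2 is an accessory subunit that helps to place the complex. In canonical PRC1, Rnf2 (also called Ring1b) places ubiquitin on histone H2A, Bmi1 is its partner, and 1 Cbx protein binds the methyl mark left by PRC2. Ezh2 is known from dividing neural progenitors, whereas Ezh1 is known from non-dividing cells, and members of the Cbx family can take each other's place in the complex.

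The libraries held 26841671 to 38802765 counts. Values are CPM, read counts brought to a common library size by TMM, a method that equalises libraries on the bulk of their genes. Chd2 ranged over 64.4 to 67.5 CPM in HET against 70.7 to 78.9 CPM in WT hippocampus, 136 to 144 CPM in HET against 153 to 175 CPM in WT MGE, and 124 to 125 CPM in HET against 143 to 153 CPM in WT cortex, so every HET library lay below the WT libraries of its tissue. The tissues carried their own markers: Camk2a of mature excitatory neurons averaged 5804 CPM in HET and 6220 CPM in WT hippocampus, Nkx2-1 of the MGE averaged 918 CPM in HET and 836.5 CPM in WT MGE, and Eomes of cortical intermediate progenitors averaged 334 CPM in HET and 359.7 CPM in WT cortex. Whether replicates came from separate animals is not stated in the labels, and the p-values cover the spread between libraries, which may be technical.

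The genes lie on 7 chromosomes of mm10. Ezh1 (chr11:101191115-101226463, minus strand) and Ezh2 (chr6:47530139-47595341, minus strand) are unlinked. Suz12 (chr11:79993106-80034123, plus strand) shares a chromosome with Ezh1. Cbx2 (chr11:119022962-119031270, plus strand) and Cbx8 (chr11:119036305-119040969, minus strand) are neighbours with 5034 bases between them. Cbx7 (chr15:79915807-79971119, minus strand) stands apart from them. Eed (chr7:89954654-89980983), Jarid2 (chr13:44729474-44921643), Rnf2 (chr1:151458004-151500955) and Bmi1 (chr2:18677018-18686629) complete the set. The spans of 3 members, introns included, overlap a gene counted on the opposite strand. The overlap is 261 bases for Eed (E230029C05Rik), 158 for Rnf2 (Trmt1l) and 100 for Cbx7 (Apobec3). Genes without a line in the counts also overlap spans of members. The longest of these overlaps are 12515 bases for Suz12 (Gm26563) and 5039 for Ezh2 (Gm26625) on the opposite strand. On the same strand, Gm36527 overlaps Rnf2 over 3029 bases. Overlap of exons was not measured, and the sources used here do not give the strand setting of the counting. Any reads in those stretches therefore cannot be assigned with certainty.

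Promoters were read for Ezh1 and Ezh2, which moved in opposite directions between the stages, and for Suz12, the other member with a match to the motif searched. RefSeq windows on GRCm38.p6, the assembly also called mm10, cover 250 bases before to 50 bases after a start annotated by RefSeq. They were found for 9 of the 10 members, 10 windows in all. The gene spans given above come from GENCODE, and their starts can differ. The windows of Ezh2, Cbx7 and Jarid2 lie inside those spans. Each was searched on both strands for the E2F-type motif, which was spelled TTTGGCGC, TTTCGCGC, TTTCCCGC or TTTGCCGC. Factors of the E2F family regulate genes of the cell division cycle. Capitals mark a match, and the sequences run 5′ to 3′ on the strand of the gene.
Ezh2, chr6:47594981-47595280, minus strand: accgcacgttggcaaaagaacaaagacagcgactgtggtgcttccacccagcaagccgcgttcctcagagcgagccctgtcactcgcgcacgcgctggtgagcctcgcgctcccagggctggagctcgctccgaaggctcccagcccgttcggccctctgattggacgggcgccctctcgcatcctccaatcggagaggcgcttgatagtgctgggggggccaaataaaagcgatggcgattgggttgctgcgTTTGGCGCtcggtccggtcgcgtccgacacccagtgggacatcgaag
Suz12, chr11:79992856-79993155, plus strand: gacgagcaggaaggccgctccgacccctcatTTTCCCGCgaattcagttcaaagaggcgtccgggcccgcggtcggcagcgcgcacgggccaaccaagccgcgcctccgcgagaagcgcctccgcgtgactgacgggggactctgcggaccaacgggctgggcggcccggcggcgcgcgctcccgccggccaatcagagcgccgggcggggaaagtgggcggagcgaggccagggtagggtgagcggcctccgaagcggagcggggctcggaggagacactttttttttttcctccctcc
Ezh1, chr11:101226414-101226713, minus strand: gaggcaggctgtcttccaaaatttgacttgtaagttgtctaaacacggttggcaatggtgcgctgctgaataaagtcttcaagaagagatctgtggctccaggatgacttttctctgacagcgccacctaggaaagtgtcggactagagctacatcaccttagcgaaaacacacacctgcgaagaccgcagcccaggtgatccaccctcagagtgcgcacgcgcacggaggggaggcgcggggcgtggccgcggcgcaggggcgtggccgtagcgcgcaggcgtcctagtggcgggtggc
Ezh2 had 1 match, starting at base 254 of the window, and Suz12 had 1, starting at base 32. The other 8 windows, of Ezh1, Eed, Jarid2, Rnf2, Bmi1, Cbx7 and Cbx8, had none. Of all 32851 windows of 300 bases, 744 (2.26%) held the motif. The bases G and C made up 52.67% of the median window, against 54.67% (Eed) to 72.67% (Rnf2) in the windows of the members. That share therefore does not come from windows of like composition. A match describes the letters of the window and does not show that a factor binds there.

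Between stages, the 2 catalytic subunits of PRC2 changed places. Ezh1 was 5.15-fold higher in hippocampus than in cortex among WT libraries, and Ezh2 was 37.3-fold lower. Cbx7 rose and Cbx2 fell in the same comparison, by 15.1-fold and 15.8-fold. All 10 members passed the test in all 4 fits of hippocampus against an embryonic tissue, run separately in HET and WT libraries and against cortex and MGE: 2 were higher in hippocampus (Ezh1 and Cbx7) and 8 were lower. The test was edgeR's quasi-likelihood test on the counts, with Benjamini-Hochberg adjustment over all genes and a threshold of 0.05. Most of the transcriptome differed in these comparisons. Of all genes tested, 78.8% were called between hippocampus and cortex in HET and 82% in WT, and 83.7% were called between hippocampus and MGE in HET and 83.7% in WT. About as many genes rose as fell. Against cortex 38.8% rose and 39.9% fell in HET, and 41.1% rose and 40.9% fell in WT. Against MGE 41.9% rose and 41.8% fell in HET, and 41.9% rose and 41.7% fell in WT. The median log2 fold change of the 10 members was -1.80 for hippocampus over cortex in WT, against -0.0024 for all genes.

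**Figure D1:**
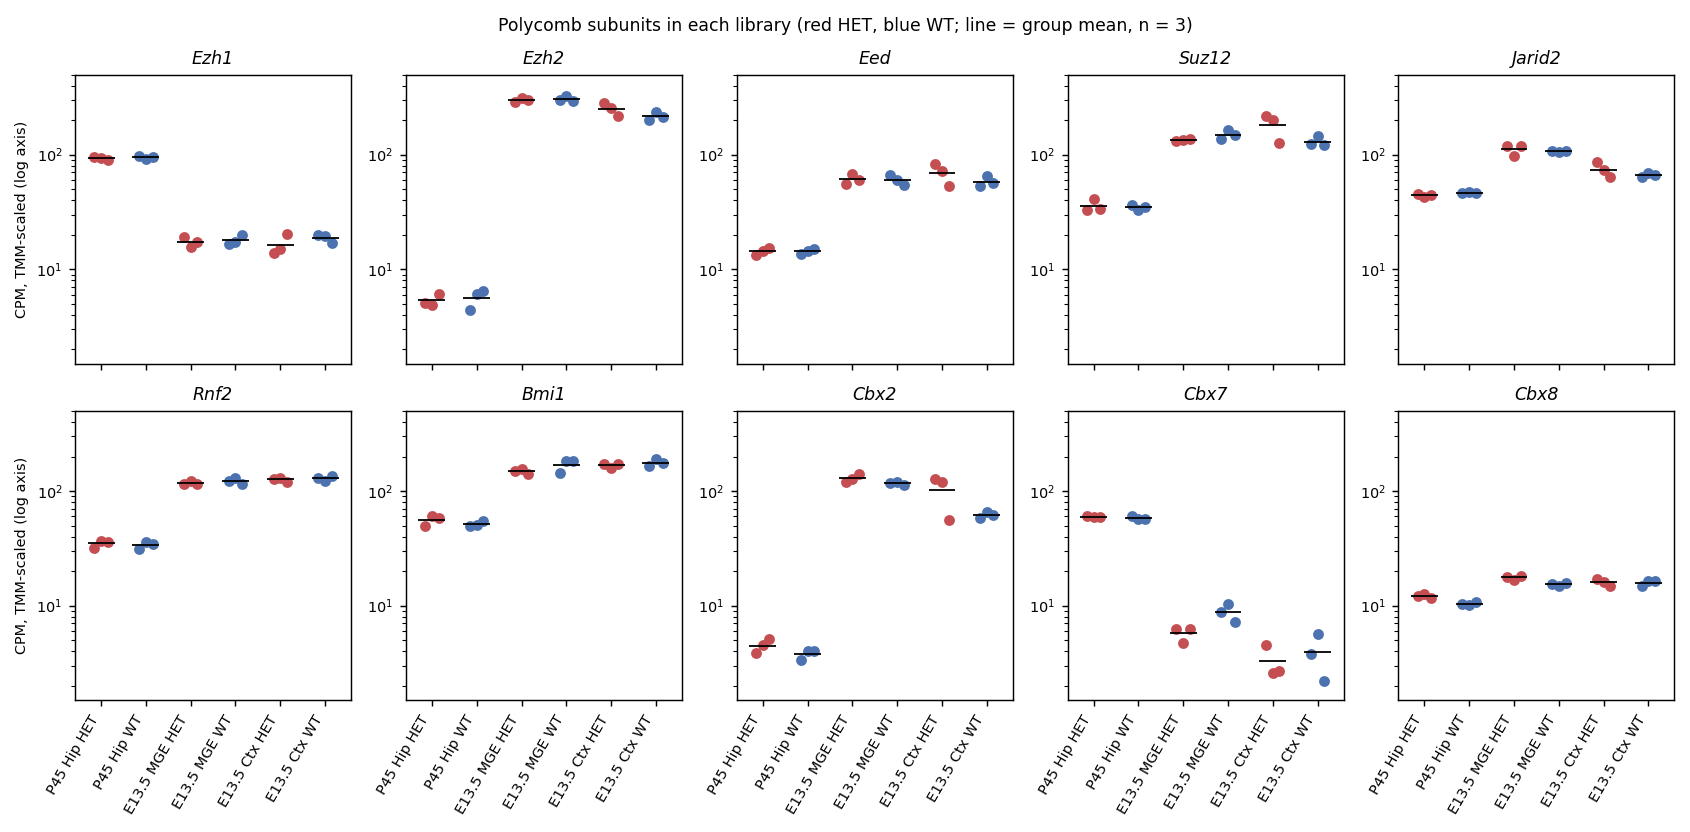
TMM-scaled CPM of each Polycomb subunit on a log axis, 1 point per library, with HET in red, WT in blue and a line at the mean of the 3 libraries. Ezh1 and Cbx7 sit higher in the 6 hippocampal libraries than in the 12 embryonic ones, the other 8 genes sit lower, and 1 cortex HET library lies apart from the other 2 for Cbx2 and Suz12.

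Ezh1, the PRC2 enzyme of lower methyltransferase activity, had 94.9, 93.4 and 90.5 CPM in HET hippocampus and 96.8, 91.4 and 96.1 CPM in WT hippocampus. In the embryo it had 19.1, 15.6 and 17.4 CPM in HET MGE, 16.8, 17.3 and 19.9 CPM in WT MGE, 13.8, 15.2 and 20.3 CPM in HET cortex, and 19.95, 19.6 and 17.0 CPM in WT cortex. The lowest hippocampal library was above the highest embryonic one, and the 4 embryonic groups overlapped each other. The log2 fold change of hippocampus over cortex was 2.50 (SE 0.15, adjusted p = 1.6e-06) in HET and 2.37 (SE 0.08, adjusted p = 1.12e-09) in WT, and over MGE it was 2.41 (SE 0.10) in HET and 2.38 (SE 0.09) in WT.

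Ezh2, the PRC2 enzyme of higher methyltransferase activity, had 5.06, 4.92 and 6.09 CPM in HET hippocampus and 4.38, 6.05 and 6.54 CPM in WT hippocampus, from 127 to 206 counts per library. In the embryo it had 285, 314 and 301.5 CPM in HET MGE, 299, 324 and 296 CPM in WT MGE, 279.8, 256 and 216 CPM in HET cortex, and 200.5, 234 and 215 CPM in WT cortex. No hippocampal library came near the embryonic range. The log2 fold change of hippocampus over cortex was -5.55 (SE 0.16, adjusted p = 4.08e-08) in HET and -5.22 (SE 0.14, adjusted p = 4.73e-10) in WT, and over MGE it was -5.82 (SE 0.12) in HET and -5.77 (SE 0.13) in WT.

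To set the paralogues beside each other, CPM were divided by the length in kilobases of all exons of the gene, 7440 bases for Ezh1 and 6678 for Ezh2. On this scale the Ezh1 to Ezh2 ratio was 15.7 ± 2.08 in HET and 15.5 ± 3.73 in WT hippocampus, 0.0522 ± 0.00775 in HET and 0.0528 ± 0.00657 in WT MGE, and 0.0606 ± 0.0210 in HET and 0.0784 ± 0.00965 in WT cortex (SD, n = 3 each). Ezh1 therefore made up 92.96 to 95.2% of the Ezh transcripts per length in the 6 hippocampal libraries and 4.24 to 8.20% in the 12 embryonic ones. The exchange was not even in amount. The summed level of both genes averaged 13.3 CPM per kb in HET and 13.6 CPM per kb in WT hippocampus, against 47.3 and 48.3 CPM per kb in HET and WT MGE and 39.8 and 35.0 CPM per kb in HET and WT cortex. The ratio within a library does not depend on how libraries are scaled. It was lower with the length of the longest coding transcript in place of all exons, at 11.6 in HET and 11.5 in WT hippocampus, with the same gene ahead in every group.

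**Figure D2:**
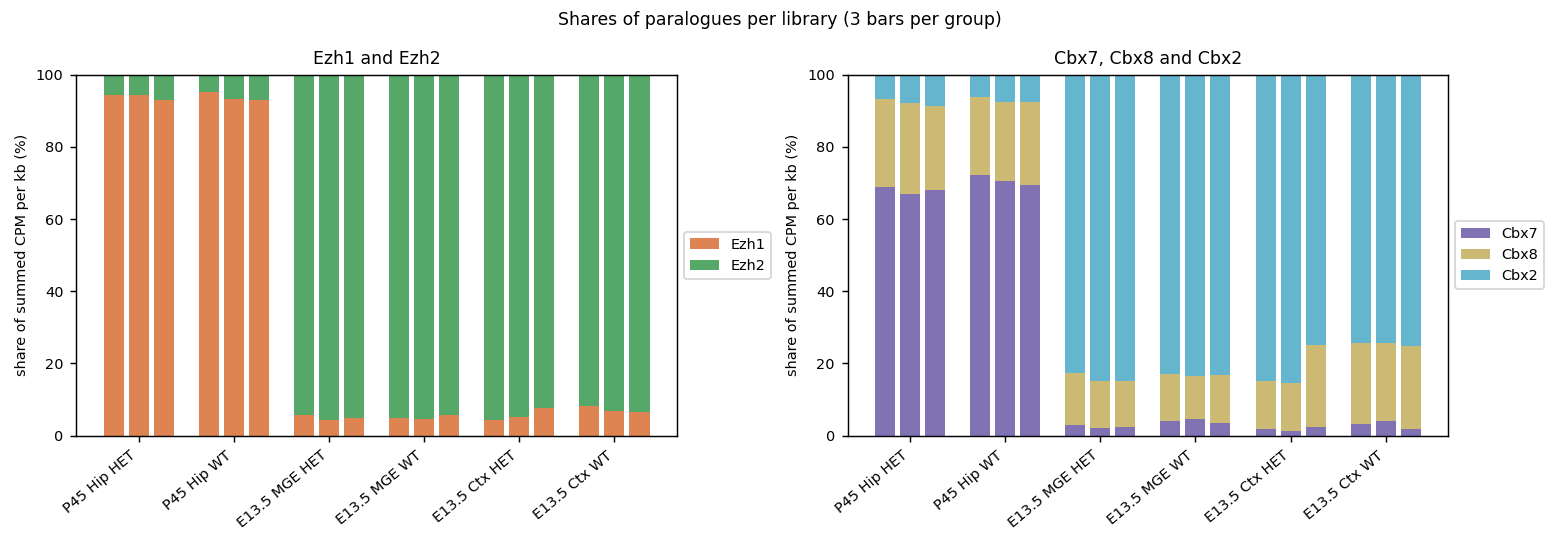
Share of the summed CPM per kb held by each paralogue, 1 bar per library in 6 groups of 3. Ezh1 fills nearly all of the hippocampal bars and a thin base of the embryonic ones, and among the 3 Cbx members Cbx7 has the largest share in hippocampus and Cbx2 in the embryo.

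Eed and Suz12, without which PRC2 is unstable, fell together. Eed averaged 14.5 ± 1.01 CPM in HET and 14.3 ± 0.664 CPM in WT hippocampus, against 61.3 ± 6.42 and 60.2 ± 5.67 CPM in HET and WT MGE and 69.8 ± 15.2 and 58.3 ± 5.73 CPM in HET and WT cortex (SD, n = 3 each). Suz12 averaged 36.0 ± 4.53 CPM in HET and 34.8 ± 1.88 CPM in WT hippocampus, against 134 ± 2.70 and 149.8 ± 14.5 CPM in HET and WT MGE and 180.5 ± 48.6 and 129.7 ± 12.8 CPM in HET and WT cortex. The ratio of Eed to Suz12 per length was between 0.457 and 0.657 in all 18 libraries, so both genes kept a similar proportion while their level changed. Their log2 fold changes of WT hippocampus over WT cortex were -1.99 (SE 0.10) for Eed and -1.87 (SE 0.09) for Suz12. This fall was smaller than that of Ezh2 in the same fit, and the difference between genes was not tested. Jarid2, the accessory subunit, fell least of the 4 PRC2 members that fell. It averaged 44.3 ± 1.20 CPM in HET and 46.5 ± 0.259 CPM in WT hippocampus, against 111.5 ± 11.5 and 107 ± 2.04 CPM in HET and WT MGE and 74.2 ± 10.9 and 66.8 ± 2.68 CPM in HET and WT cortex. Its log2 fold change of WT hippocampus over WT cortex was -0.49 (SE 0.07, adjusted p = 5.67e-05), and over WT MGE it was -1.22 (SE 0.07).

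The core members of PRC1 were also lower in hippocampus than in the embryo. Rnf2, the ubiquitin ligase, averaged 34.9 ± 2.75 CPM in HET and 34.1 ± 2.45 CPM in WT hippocampus, while its embryonic libraries lay between 114.6 and 135 CPM. Bmi1, its partner, averaged 55.8 ± 5.40 CPM in HET and 51.8 ± 2.92 CPM in WT hippocampus, while its embryonic libraries lay between 140.2 and 189 CPM. The log2 fold changes of WT hippocampus over WT cortex were -1.89 (SE 0.07) for Rnf2 and -1.73 (SE 0.08) for Bmi1. Per length, Bmi1 exceeded Rnf2 in all 18 libraries, with ratios of 1.62 to 1.68 in HET and 1.47 to 1.65 in WT hippocampus and 1.23 to 1.65 in the embryo.

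The Cbx paralogues, which give PRC1 its reader of the methyl mark, moved apart. Cbx2 had 3.84, 4.54 and 5.08 CPM in HET hippocampus and 3.38, 4.01 and 4.06 CPM in WT hippocampus. In the embryo it had 119, 127 and 141 CPM in HET MGE, 116, 120.3 and 114 CPM in WT MGE, 129, 119 and 56.3 CPM in HET cortex, and 57.7, 66.3 and 62.0 CPM in WT cortex. Cbx2 was thus low in every hippocampal library, and within cortex HET 3 lay with the WT libraries. The log2 fold change of hippocampus over cortex was -4.49 (SE 0.33, adjusted p = 4.55e-06) in HET and -3.98 (SE 0.11, adjusted p = 2.3e-10) in WT, and over MGE it was -4.86 (SE 0.12) in HET and -4.95 (SE 0.10) in WT.

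Cbx7 had 60.1, 58.9 and 59.9 CPM in HET hippocampus and 60.5, 57.4 and 57.2 CPM in WT hippocampus. In the embryo it had 6.31, 4.73 and 6.26 CPM in HET MGE, 8.78, 10.3 and 7.15 CPM in WT MGE, 4.54, 2.57 and 2.67 CPM in HET cortex, and 3.82, 5.71 and 2.22 CPM in WT cortex, from 62 to 348 counts per library. Among the 10 members it had the lowest level per length in each of the 4 embryonic groups and ranked 3 in both hippocampal groups. The log2 fold change of hippocampus over cortex was 4.19 (SE 0.22, adjusted p = 6.61e-07) in HET and 3.92 (SE 0.27, adjusted p = 4.07e-06) in WT, and over MGE it was 3.35 (SE 0.13) in HET and 2.73 (SE 0.12) in WT.

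Cbx8, the neighbour of Cbx2 on chromosome 11, changed far less. It had 12.2, 12.5 and 11.6 CPM in HET hippocampus and 10.3, 10.1 and 10.7 CPM in WT hippocampus. Its 12 embryonic libraries ran from 14.7 CPM over a median of 16.2 CPM to 18.02 CPM, just above the hippocampal range. The log2 fold change of hippocampus over cortex was -0.40 (SE 0.12, adjusted p = 0.0167) in HET and -0.58 (SE 0.11, adjusted p = 0.00058) in WT, and over MGE it was -0.56 (SE 0.10) in HET and -0.59 (SE 0.11) in WT. In HET libraries the call against cortex was lost without hippocampus HET 1 (adjusted p = 0.0522), hippocampus HET 3 (0.0748) or cortex HET 1 (0.0648).

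Per length, the Cbx7 to Cbx2 ratio was 8.84 ± 1.30 in HET and 10.1 ± 1.40 in WT hippocampus, 0.0294 ± 0.00513 in HET and 0.0489 ± 0.00738 in WT MGE, and 0.0229 ± 0.00848 in HET and 0.0412 ± 0.0166 in WT cortex (SD, n = 3 each). Of the summed level of the 3 Cbx members, Cbx7 held 67.9% in HET and 70.8% in WT hippocampus, and Cbx2 held 84.2% in HET and 83.2% in WT MGE and 81.7% in HET and 74.7% in WT cortex. These shares cover the 3 members only. Cbx6, a further reader paralogue, stood above Cbx7 per length in hippocampus, at 43.8 ± 0.887 CPM per kb in HET and 49.15 ± 1.095 CPM per kb in WT, from counts that may include reads of the overlapping gene Npcd.

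The order of the members by level per length showed the same exchange. In WT hippocampus Bmi1 (13.04 ± 0.734 CPM per kb) and Ezh1 (12.7 ± 0.397) stood highest and overlapped, followed by Cbx7 (8.999 ± 0.288) and Rnf2 (8.26 ± 0.594). Cbx2 (0.897 ± 0.0887) and Ezh2 (0.847 ± 0.169) stood lowest and overlapped. In WT MGE Ezh2 (45.9 ± 2.33) and Bmi1 (42.7 ± 5.60) stood highest and overlapped, and Suz12 (30.3 ± 2.94), Rnf2 (29.6 ± 1.86) and Cbx2 (27.4 ± 0.782) each overlapped the next. In WT cortex Bmi1 (44.4 ± 3.10) stood alone above Ezh2 (32.4 ± 2.56) and Rnf2 (31.3 ± 1.61), which overlapped. Ezh1 ranked 9 and Cbx7 ranked 10 in all 4 embryonic groups.

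Cell composition differed with stage, and in bulk tissue fewer cells of a type and less RNA per cell cannot be told apart. The summed level of 15 proliferation genes, all 15 detected in every library, was 115 to 117 CPM in HET against 87.0 to 115 CPM in WT hippocampus. It was 5130 to 6623 CPM in HET against 5371 to 6039 CPM in WT MGE, and 3184 to 4832 CPM in HET against 3252 to 3552 CPM in WT cortex. Sums of 7 astrocyte genes were 3983 to 4397 CPM in hippocampus against 84.4 to 556.5 CPM in the embryo, those of 6 oligodendrocyte genes were 6480 to 10190 CPM against 35.9 to 76.9 CPM, and those of 8 neuronal genes were 5292 to 5870 CPM against 2007 to 3849 CPM. The part of these cells in the changes of the Polycomb subunits was not tested.

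Within the embryo, the question was whether the subunits differ between the MGE and the cortex. In WT libraries 4 members were higher in MGE and 0 were lower, where 49.4% of all genes tested were called, 24.9% higher and 24.5% lower. They were Ezh2 (log2 fold change 0.50, SE 0.08, adjusted p = 0.000392), Jarid2 (0.69, SE 0.07, adjusted p = 1.62e-05), Cbx2 (0.91, SE 0.07, adjusted p = 3.91e-06) and Cbx7 (1.15, SE 0.30, adjusted p = 0.0112). Of these 4, Cbx7 lost its call without MGE WT 2 (1.01, adjusted p = 0.0519). In all 4 cases the MGE libraries lay above the cortex libraries, as they did for 29.6% of all genes tested. Ezh1 (-0.07, SE 0.12), Eed (0.05, SE 0.09), Rnf2 (-0.08, SE 0.08), Bmi1 (-0.06, SE 0.10) and Cbx8 (-0.04, SE 0.11) did not pass, nor did Suz12 (0.21, SE 0.09, adjusted p = 0.0846). Suz12 passed without MGE WT 1 (0.26, adjusted p = 0.0428) or cortex WT 2 (0.28, adjusted p = 0.0332). In HET libraries, where 25.9% of all genes were called (11.4% higher and 14.6% lower), Jarid2 alone passed (0.59, SE 0.14, adjusted p = 0.0158). Its call was lost without MGE HET 1 (adjusted p = 0.0607), MGE HET 3 (0.0729) or cortex HET 2 (0.054). Cbx7 at 0.83 (SE 0.28, adjusted p = 0.0572) was near the threshold, and without cortex HET 1 it passed (1.14, adjusted p = 0.0194). Cbx2 (0.36, SE 0.27) did not pass in HET. Without cortex HET 3, a library that stood apart for Suz12 as given below, Suz12 was lower in MGE (-0.62, adjusted p = 0.000997). Marker sums differed between the same WT libraries. The proliferation genes summed to 5371 to 6039 CPM in WT MGE against 3252 to 3552 CPM in WT cortex, the astrocyte genes to 104.8 to 117 CPM against 424 to 488 CPM, and 6 genes of meninges and mesenchyme to 25.1 to 36.4 CPM against 373 to 611 CPM. The 6 choroid plexus genes summed to 1.84 to 6.76 CPM in WT MGE against 4.37 to 1572 CPM in WT cortex. Their part in the differences of the members was not tested, nor was that of sex, which was unevenly spread over these libraries. Xist ranged over 1736 to 1900 CPM in WT MGE against 0.963 to 1290 CPM in WT cortex. In HET it ranged over 0.490 to 1.08 CPM in MGE against 1.06 to 1292 CPM in cortex.

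**Figure D3:**
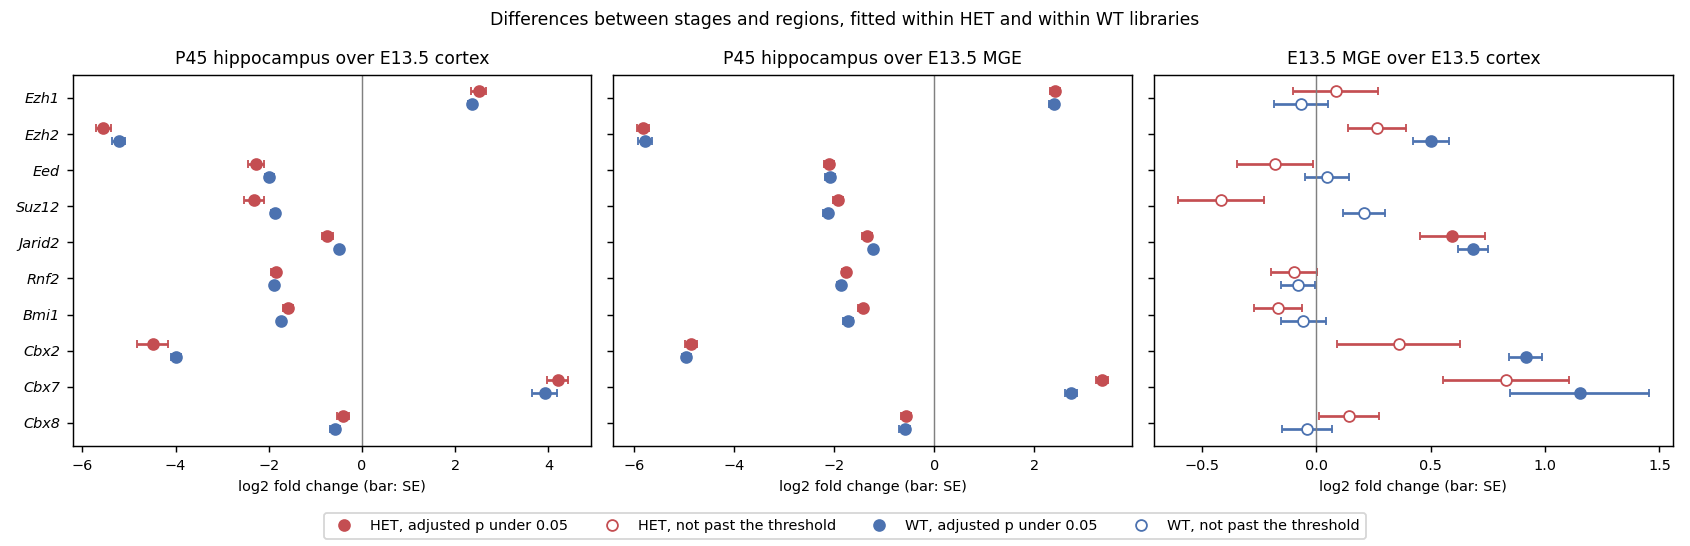
Log2 fold changes of the Polycomb subunits with their SE, hippocampus over cortex, hippocampus over MGE and MGE over cortex, HET in red above WT in blue. Filled points have an adjusted p under 0.05; all points of the first 2 panels are filled, and so are 4 WT points and 1 HET point for MGE over cortex.

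For the main question of the series, the effect of the Chd2 mutation, no member passed the test of HET against WT in any tissue with edgeR's quasi-likelihood test, and none passed with DESeq2 or limma-voom. Few genes of any kind passed: 1.07% in hippocampus, 0.0479% in MGE and 0% in cortex, where the lowest adjusted p of any gene was 0.107 and 1165 genes had an unadjusted p under 0.05. The medians of the 10 log2 fold changes were 0.04 in hippocampus, -0.04 in MGE and 0.10 in cortex, against 0.0047, 0.0082 and 0.014 over all genes. An unadjusted p under 0.05 was found for 1 member in hippocampus (Cbx8), 1 in MGE (Cbx7) and 2 in cortex (Cbx2 and Suz12), where 15.6%, 4.51% and 7.89% of all genes had one.

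In hippocampus Cbx8 had 12.2, 12.5 and 11.6 CPM in HET and 10.3, 10.1 and 10.7 CPM in WT. All HET libraries lay above all WT libraries, with a difference of 0.23 on the log2 scale (SE 0.10, adjusted p = 0.295). Jarid2 lay below in all HET libraries, at 43.0 to 45.2 CPM in HET against 46.3 to 46.8 CPM in WT, which is -0.07 (SE 0.06, adjusted p = 0.64) on the log2 scale. Groups did not overlap in 20.8% of all genes tested in this tissue. The other 8 members overlapped and ranged from -0.08 (SE 0.17) for Ezh2 to 0.24 (SE 0.17) for Cbx2. Ezh1 differed by -0.03 (SE 0.05). The summed level of 5 endothelial genes was 70.8 to 81.9 CPM in HET against 110.4 to 116 CPM in WT hippocampus, and its part in these values was not tested.

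In MGE Cbx7 had 6.31, 4.73 and 6.26 CPM in HET and 8.78, 10.3 and 7.15 CPM in WT. All HET libraries lay below all WT libraries, with a difference of -0.60 on the log2 scale (SE 0.19, adjusted p = 0.98). Cbx8 lay above, at 16.9 to 18.02 CPM in HET against 14.8 to 15.9 CPM in WT (0.19, SE 0.11, adjusted p = 0.98). Groups did not overlap in 9.7% of all genes tested. The remaining 8 members ranged from -0.19 (SE 0.11) for Bmi1 to 0.14 (SE 0.09) for Cbx2. Genotype and sex-linked markers split the MGE libraries alike, with Xist at 0.490 to 1.08 CPM in HET against 1736 to 1900.0 CPM in WT, so the mutation and the sex of the embryos cannot be told apart in this tissue.

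**Figure D4:**
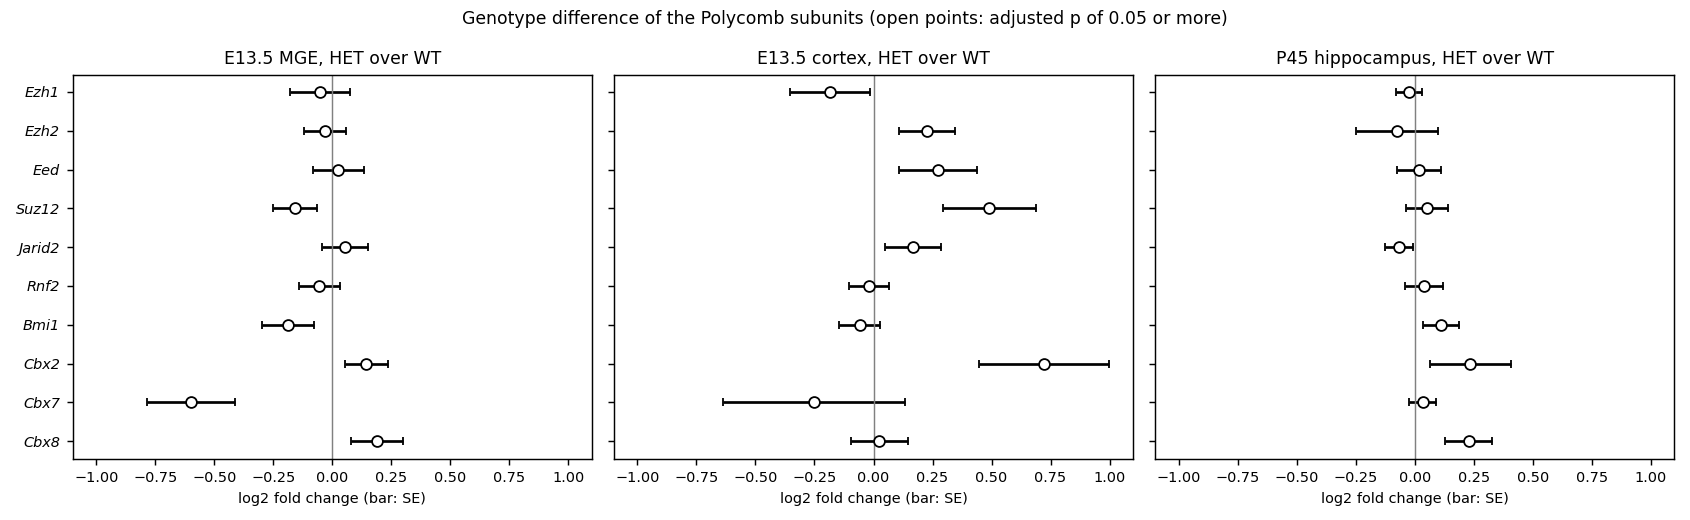
Log2 fold change of HET over WT for each Polycomb subunit with its SE, in MGE, cortex and hippocampus. Every point is open, which marks an adjusted p of 0.05 or more, and the bars are widest for Cbx2 and Cbx7 in cortex.

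In cortex the 3 HET libraries did not form 1 group. Cbx2 had 129, 119 and 56.3 CPM in HET and 57.7, 66.3 and 62.0 CPM in WT, a difference of 0.72 on the log2 scale (SE 0.28, adjusted p = 0.578). Suz12 had 217, 199.6 and 125 CPM in HET and 123, 144 and 121 CPM in WT, a difference of 0.49 on the log2 scale (SE 0.20, adjusted p = 0.578). In both genes HET 1 and HET 2 stood above all WT libraries and HET 3 stood among them or below. Eed (83.7, 72.2 and 53.6 CPM in HET, and 53.5, 64.7 and 56.8 CPM in WT), Ezh2 and Jarid2 likewise had HET 1 and HET 2 above all WT libraries, whereas Rnf2 and Bmi1 did not. Ezh1 ran the other way, with 13.8 and 15.2 CPM in HET 1 and HET 2 and 20.3 CPM in HET 3, against 19.95, 19.6 and 17.0 CPM in WT. No member had groups without overlap, where 11.1% of all genes did.

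Leaving out each cortex library in turn gave 0 members called in 5 of the 6 fits and 5 members called without HET 3, all higher in HET. They were Cbx2 (1.01, SE 0.07, adjusted p = 0.000167), Suz12 (0.70, SE 0.08, adjusted p = 0.000659), Eed (0.44, SE 0.09, adjusted p = 0.00743), Ezh2 (0.32, SE 0.08, adjusted p = 0.0109) and Jarid2 (0.27, SE 0.08, adjusted p = 0.0289). Ezh1 was at -0.36 (SE 0.13, adjusted p = 0.0547). Without HET 3, 30.7% of all genes tested were called, 17.7% higher and 13% lower. The proliferation genes moved with the same libraries, summing to 4800, 4832 and 3184 CPM in HET and 3252, 3552 and 3445 CPM in WT. Some other marker sums split likewise. The 8 neuronal genes summed to 2085, 2007 and 3191 CPM in HET and 2836, 2832 and 3270 CPM in WT, and the 9 red blood cell genes to 929, 1150 and 376 CPM in HET against 295 to 448 CPM in WT. The choroid plexus genes varied without that order, from 10.4 to 439 CPM in HET against 4.37 to 1572 CPM in WT. So did the 6 genes of meninges and mesenchyme, at 544, 770 and 707 CPM in HET and 611, 375.5 and 373 CPM in WT. The 8 radial glia genes (2814 to 3096 CPM in HET, 2531 to 3018 CPM in WT) and 5 endothelial genes (164 to 201 CPM in HET, 141 to 209 CPM in WT) did not follow it either. The 5 sex-linked genes, Xist and Y-linked genes, summed to 221, 1292 and 236 CPM in HET and 241, 1251 and 1290 CPM in WT. The high sums were Xist. Sex was thus uneven between HET and WT cortex, and its part was not tested. Chd2 itself did not separate the HET libraries, at 125, 124 and 124 CPM. The part of proliferating cells in the values of the Polycomb subunits was not tested.

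**Figure D5:**
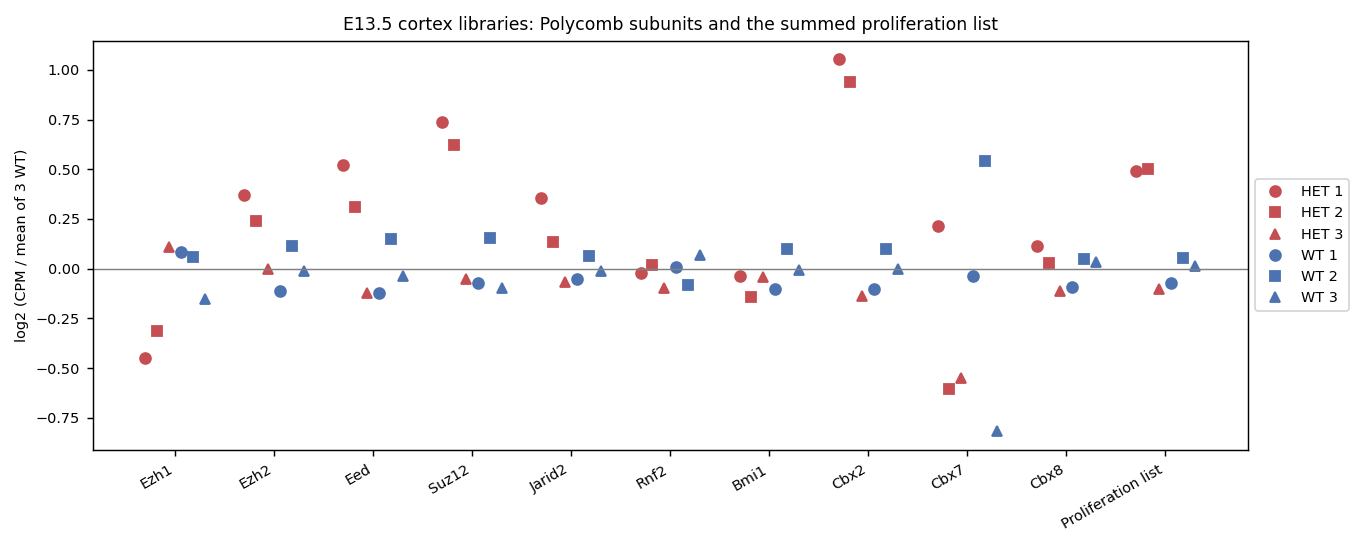
Log2 of the CPM of each cortex library over the mean of the 3 WT cortex libraries, for the 10 Polycomb subunits and the summed proliferation genes; red is HET, blue is WT and the shape gives the replicate. HET 1 and HET 2 stand above the other 4 libraries for Ezh2, Eed, Suz12, Jarid2, Cbx2 and the proliferation genes, and HET 3 lies near 0.

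HET over WT was also compared between tissues, as the difference of the log2 fold changes in 1 fit of the 18 libraries. In the contrasts with MGE, the mutation and the sex of the embryos cannot be told apart, as given above for that tissue. No member passed in any of the 3 contrasts with edgeR, and the lowest adjusted p was 0.406. The only member with an unadjusted p under 0.05 was Suz12, whose HET over WT difference in cortex minus that in MGE was 0.63 (SE 0.21, adjusted p = 0.71). Among all 16125 genes, 0, 1 and 2 passed for cortex minus MGE, hippocampus minus MGE and hippocampus minus cortex.

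A further 59 genes were listed as background to the members and are called other Polycomb genes for short. They were accessory subunits of PRC2, other subunits of canonical and variant PRC1, and the PR-DUB complex that removes ubiquitin from histone H2A. As related genes, the list also held the 2 demethylases of histone H3 lysine 27 and the 3 Cbx proteins of heterochromatin. Of the 58 that could be tested, 13 were higher and 35 lower in hippocampus than in cortex in HET, and 18 were higher and 36 lower in WT. Against MGE, 9 were higher and 39 lower in HET, and 10 were higher and 39 lower in WT. Over all genes tested, 38.8% were higher and 39.9% lower against cortex in HET, and 41.1% and 40.9% in WT. The shares against MGE were 41.9% higher and 41.8% lower in HET, and 41.9% and 41.7% in WT. The median log2 fold change was -0.50 for WT hippocampus over cortex, against -0.0024 for all genes.

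Of the 10 other genes of canonical PRC1, 6 were higher and 4 lower in hippocampus than in cortex in WT, and of the 24 genes of variant PRC1, 6 were higher and 17 lower. Against WT MGE, 4 were higher and 5 lower in canonical PRC1, and 2 were higher and 16 lower in variant PRC1. The shares over all genes were 41.1% higher and 40.9% lower against WT cortex, and 41.9% and 41.7% against WT MGE. Cbx6, a reader paralogue, averaged 521 ± 11.6 CPM in WT hippocampus and 72.9 ± 7.30 CPM in WT cortex (log2 fold change 2.87, SE 0.09, adjusted p = 4.85e-10). The span of Cbx6, introns included, overlaps that of Npcd over 10342 bases on the same strand. Overlap of exons was not measured, so its counts may depend on how reads shared by both genes were assigned. Other genes among the 6 largest rises were Foxk1 (1.70) and Mbd5 (1.59) of the PR-DUB list, E130012A19Rik (1.11), also called Epop, an accessory subunit of PRC2, and Yaf2 (0.92), a subunit of variant PRC1. The largest falls were Scml2 (-3.05), Cbx1 (-2.48), Cbx3 (-2.47), Phf19 (-2.38), Rbbp4 (-2.12) and Pcgf2 (-2.10). Cbx1 and Cbx3 bind the heterochromatin mark on histone H3 lysine 9, Rbbp4 is a histone-binding subunit of PRC2 and other complexes, Phf19 is an accessory subunit of PRC2, and Pcgf2 is the paralogue of Bmi1. Scml2 and Phf19 were close to 1 CPM in hippocampus. Against WT MGE these genes were again among the largest rises, from 0.99 for Yaf2 to 2.34 for Cbx6, and the largest falls were Phf19 (-4.15, SE 0.23), Scml2 (-3.38), Cbx1 (-2.85), Cbx3 (-2.62), Scml4 (-2.37) and Pcgf2 (-2.34). In HET libraries Cbx6, Foxk1, Mbd5 and Yaf2 were again among the 6 largest rises against both embryonic tissues, joined by Phf1 (0.96) against cortex and E130012A19Rik (0.72) against MGE. Among the 6 largest falls in HET were Tfdp1 (-1.91) against cortex and Bcor (-2.39) against MGE, which were not among those in WT.

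Between MGE and cortex, 6 of these genes were higher and 3 lower in HET, and 30 were higher and 7 lower in WT. Over all genes tested, 11.4% were higher and 14.6% lower in HET, and 24.9% were higher and 24.5% lower in WT. Scml4 differed most, at 14.7 ± 3.11 CPM in WT MGE and 1.25 ± 0.154 CPM in WT cortex (3.55, SE 0.22, adjusted p = 6.5e-07). Phf19 (1.72), Fbrsl1 (1.23), Bcor (0.94), Phc1 (0.61, SE 0.08) and Cbx5 (0.61, SE 0.08) followed in WT. The largest falls in WT were Asxl3 (-0.49), E130012A19Rik (-0.46), Auts2 (-0.44), Rybp (-0.28), Csnk2b (-0.24) and Lcorl (-0.23). Of these 6 calls, 4 changed with the libraries used. Rybp lost its call without MGE WT 1, MGE WT 3, cortex WT 2 or cortex WT 3 (adjusted p of 0.0545 to 0.0736), and Csnk2b without MGE WT 2, MGE WT 3, cortex WT 2 or cortex WT 3 (0.0513 to 0.112). E130012A19Rik lost its call without MGE WT 1 (0.122), MGE WT 3 (0.127) or cortex WT 2, where its log2 fold change was -0.255 (0.121). Lcorl lost its call without cortex WT 2 (0.0595) or cortex WT 3 (0.0605). In 1 fit of all 18 libraries Asxl3 (0.0526), E130012A19Rik (0.0851) and Lcorl (0.103) did not pass.

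Of the same 58 genes, the test of HET against WT passed for 1 in hippocampus, 1 in MGE and 0 in cortex. E130012A19Rik was lower in HET hippocampus, at 43.3 ± 5.07 CPM in HET against 70.8 ± 11.9 CPM in WT (-0.71, SE 0.13, adjusted p = 0.0491). That call was lost without WT 2 (adjusted p = 0.176), WT 3 (0.106), HET 1 (0.111) or HET 3 (0.255), and also with library-total scaling (0.0677), with no filter on low counts (0.064) and in 1 fit of all 18 libraries (0.481). Kdm6a, an X-linked demethylase of histone H3 lysine 27 that escapes X inactivation, was lower in HET MGE, at 50.7 ± 1.42 CPM in HET against 84.0 ± 2.91 CPM in WT (-0.73, SE 0.08, adjusted p = 0.0101). It follows the split of the sex-linked markers in that tissue, and its call was lost without WT 2 (0.0937), WT 3 (0.0789) or HET 3 (0.141) and in 1 fit of all 18 libraries (0.251). In cortex the lowest p values belonged to Rbbp7 (0.29, SE 0.10) and L3mbtl2 (0.37, SE 0.13), both with an adjusted p of 0.578. Without cortex HET 3, 26 of the 58 were higher in HET and 2 lower, where 17.7% of all genes were higher and 13% lower. This fit was singled out after the values of that library were seen. The lower genes, Pcgf1 and Skp1a, were singled out after their values were seen.

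The genes whose pattern over the 18 libraries was most like that of a member were found by the root mean square difference of log2 CPM, each gene centred on its own mean, among 16124 genes. Patterns over these libraries are dominated by stage, and the points share their library and its scaling. For Ezh1 the 5 closest were Cltb, Calm3, Gabarapl1, Agtpbp1 and Hdac11 (differences of 0.102 to 0.133, where the median of all genes was 1.3). For Ezh2 they were Mex3a, Efcab11, Mcm3, Brca1 and Cenpa (0.158 to 0.21, median 2.68), and for Cbx2 they were Tacc3, Lig1, Gsg2, Fanca and BC030867 (0.158 to 0.213, median 2.23). Mcm3 and Lig1 take part in DNA replication, Cenpa and Tacc3 in chromosome segregation, and Brca1 and Fanca in DNA repair; Mcm3 is also in the proliferation list. For Cbx7, Rap1gap, Sntg1, Chn1 and Usp2 were among the 5 closest genes but less close (0.365 to 0.397, median 1.85).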

How the data were processed

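The authors deposited 1 table of raw read counts per gene symbol for the 18 libraries, with no normalization. Per the submitters' processing notes, the tools included TopHat2 2.1.1, Trimmomatic, FastQC, SAMtools and DESeq2, and the build was mm10. The counting program and the strand setting are not stated in those sources. Symbols turned into dates fill 27 of 24062 lines and 0.247 to 0.297% of the counts. Replicates differed by 5.79 to 100.5 times counting noise, so none was a copy of another.

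Genes were filtered with filterByExpr (minimum count 10, minimum total 15) and tested with edgeR 4.0.16 in R 4.3.3 (TMM, robust quasi-likelihood F test, Benjamini-Hochberg adjusted p under 0.05), 2 groups per fit and 9 fits, after a check on simulated data. Interactions used 1 fit of all 18 libraries. CPM are TMM-scaled over the 18 libraries, errors on them are SDs over 3 libraries, and lengths come from GENCODE M21 (mm10). Named are all members, up to 6 higher and 6 lower other Polycomb genes per stage or region fit with a mean log2 CPM of at least 1 (for HET fits, mostly as counts), and, for genotype, those passing or the 2 of lowest p; some items the rule names are not reported here. The members, lists and alternatives were chosen with earlier results of these data known. Alternatives were RLE and library-total scaling, no filter, DESeq2 1.42.0, limma-voom (limma 3.58.1), 1 fit of 18 libraries, a replicate block and leaving out each library.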

Additional observations from a re-analysis of the deposited data

How the results depend on the processing

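All 10 members kept their direction and their call between hippocampus and each embryonic tissue under RLE and library-total scaling, no filter on low counts, DESeq2, limma-voom, 1 fit of 18 libraries and the replicate block. Leaving out single libraries changed this for Cbx8 against HET cortex, as given above, so 9 to 10 members were called there. Of 116 called single-gene results, members and other Polycomb genes together, 800 of 812 values under these alternatives and 647 of 696 with a library left out kept their call, and 0 reversed.

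Of the 0 members called between HET and WT, 0 to 5 were called in cortex with a library left out. Genes called in cortex (0) were 1 without the filter, 11 with DESeq2, 4 in 1 fit of 18 libraries and 0 to 4598 with a library left out. Those in MGE (7) were 33 with DESeq2 and 5 to 27 with a library left out, reaching 27 without WT 1 and 11 without HET 1 or HET 2. Those in hippocampus (164) were 291 without the filter, 441 with DESeq2, 11 in 1 fit of 18 libraries and 23 to 292 with a library left out: 292 without WT 1, 37 without WT 2 and 23 without HET 3. Library-total scaling raised the share of hippocampal calls that were higher in HET to 37%, against 24.4%. For MGE against cortex in HET, 3846 genes were called, 6612 in 1 fit of 18 libraries and 2204 to 4680 with a library left out, the lowest without MGE HET 3. The 1 member called there was joined by Cbx7 with DESeq2 and limma-voom (2 called) and by Cbx7 and Suz12 in 1 fit of 18 libraries (3), and 0 to 2 were called with a library left out. The cause of these differences was not tested, except that a fit of 18 libraries shares 1 estimate of spread.

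Library-total scaling moved the median of all genes by -0.186 for hippocampus over cortex in WT and -0.103 in HET, and no member's direction changed there. Among differences that did not pass, Cbx8 in cortex turned to -0.00626 with library-total scaling and -0.00296 without the filter, and Ezh1 in hippocampus to 0.0015 with library-total scaling. Leaving out a library reversed 22 more values, none of them called. Over the libraries left out, HET over WT ranged in MGE from -0.0578 to 0.00763 (Ezh2), -0.127 to 0.0327 (Ezh1) and -0.0522 to 0.104 (Eed). In cortex it ranged from -0.054 to 0.0879 (Cbx8), -0.592 to 0.115 (Cbx7) and -0.0753 to 0.0168 (Rnf2), and in hippocampus from -0.0284 to 0.0673 (Eed), -0.0111 to 0.0985 (Rnf2), -0.222 to 0.0314 (Ezh2) and -0.0547 to 0.111 (Suz12). MGE over cortex ranged from -0.0389 to 0.118 (Eed) and -0.125 to 0.0348 (Bmi1) in WT and -0.0286 to 0.271 (Ezh1) in HET. The Ezh1 to Ezh2 ratio with the longest coding transcript was 11.6 in HET and 11.5 in WT hippocampus, 0.0385 in HET and 0.0390 in WT MGE, and 0.0579 in WT cortex. Replicate numbers did not pair the libraries (correlations of deviations of -0.226 to 0.12). With the number as a replicate block 80 genes were called in hippocampus and 2 members in MGE against cortex in HET, Suz12 passed in MGE against cortex in WT (0.208, adjusted p = 0.0239), and Kdm6a lost its call (adjusted p = 0.191). Cbx7 rests on 62 to 348 counts per library in the embryo, which limits the precision of its values there.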
